A study of Mus musculus with 2 samples.

Results

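The regions described here are the background intervals of an NRF1 chromatin immunoprecipitation (ChIP-seq) data set on a 25-Mb block of mouse chromosome 3 and on the whole of chromosome 16. They were taken from the relaxed list that was called on both replicates pooled and holds 300000 lines of peaks and background. Lines on chromosome 16, or between 130000001 and 155000000 of chromosome 3 (mm10), were kept if they overlapped no peak of the optimal set, the set selected by irreproducible discovery rate (IDR). This gave 24597 intervals, 7194 in the chromosome 3 block and 17403 on chromosome 16, of the 281375 lines that overlap no optimal peak. They made up 2.56% and 6.18% of those lines. The rule removed 254 lines in the chromosome 3 block and 877 on chromosome 16, whose signal had a median of 23.5 and 28.7. The regions were chosen because the pooled list is dense there, so the densities below are descriptions with no test, and the replicate lists, from which the pooled data come, are no independent support.

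The cells were CH12.LX, an immortalized mouse B-cell lymphoma line from strain B10.H-2aH-4bp/Wts labelled female, with no treatment given in the labels. The 2 libraries, biological replicates 1 and 2 per the labels, were made with an antibody to NRF1 and form 1 group, so no condition is compared. Nothing in the labels says whether they came from separate cultures beyond their separate biosample entries, and the spread between them may be technical. The number of reads, the coverage of the control library and the karyotype of the line were not analysed here.

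Nuclear respiratory factor 1 (NRF1) recognises a GC-rich palindromic motif, mostly at promoters, and activates nuclear genes for mitochondrial and other housekeeping proteins. In ChIP-seq, reads also fall outside bound sites, and a relaxed peak list is called loosely on purpose so that this background is included. IDR then compares the ranks of the intervals between lists, such as those of replicates, and keeps the part whose ranks recur. An interval that overlaps no optimal peak is therefore a place where the caller saw some enrichment that was not selected as an NRF1 peak.

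As examples from these regions, the promoter windows of 4 genes are given. For each region, the first is the window with the motif under the strongest optimal peak. The second is the window under the strongest background interval alone. The motif was required of the first kind, so these 4 windows cannot show what separates a selected peak from a background interval. Each is 300 bases, from 250 before to 50 after a transcription start, 5′ to 3′ on the strand of the gene, from RefSeq on GRCm38.p6 (mm10). Capitals mark matches to the core of the NRF1 motif, the tetramer GCGC, then A, any base and GCGC again, sought on both strands. Rabggtb (chr3:153912917-153913216, minus strand), which encodes a subunit of Rab geranylgeranyl transferase, and Mrtfb (chr16:13256231-13256530, plus strand), a coactivator of serum response factor, overlap an optimal peak with a signal of 602 and 651. Bdh2 (chr3:135280971-135281270, plus strand), a hydroxybutyrate dehydrogenase, and Nde1 (chr16:14163025-14163324, plus strand), a centrosomal partner of dynein, overlap only a background interval, with a signal of 25.4 and 36.5.
Rabggtb: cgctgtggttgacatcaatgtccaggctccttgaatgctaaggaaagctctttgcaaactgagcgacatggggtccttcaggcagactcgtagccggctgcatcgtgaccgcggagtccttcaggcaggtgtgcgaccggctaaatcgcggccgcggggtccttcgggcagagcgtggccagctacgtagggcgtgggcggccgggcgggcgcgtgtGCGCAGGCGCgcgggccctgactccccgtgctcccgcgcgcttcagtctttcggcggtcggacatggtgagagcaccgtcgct
Mrtfb: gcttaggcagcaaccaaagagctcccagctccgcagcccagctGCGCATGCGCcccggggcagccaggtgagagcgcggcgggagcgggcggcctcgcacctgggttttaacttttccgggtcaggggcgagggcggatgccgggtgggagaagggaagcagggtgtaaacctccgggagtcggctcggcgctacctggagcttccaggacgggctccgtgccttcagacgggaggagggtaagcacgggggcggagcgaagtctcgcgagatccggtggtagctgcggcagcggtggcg
Bdh2: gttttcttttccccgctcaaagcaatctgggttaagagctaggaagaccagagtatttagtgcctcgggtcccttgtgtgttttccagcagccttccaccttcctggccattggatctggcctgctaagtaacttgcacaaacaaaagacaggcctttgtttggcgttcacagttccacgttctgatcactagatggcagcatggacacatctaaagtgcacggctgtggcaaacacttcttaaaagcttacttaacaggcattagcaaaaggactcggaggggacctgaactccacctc
Nde1: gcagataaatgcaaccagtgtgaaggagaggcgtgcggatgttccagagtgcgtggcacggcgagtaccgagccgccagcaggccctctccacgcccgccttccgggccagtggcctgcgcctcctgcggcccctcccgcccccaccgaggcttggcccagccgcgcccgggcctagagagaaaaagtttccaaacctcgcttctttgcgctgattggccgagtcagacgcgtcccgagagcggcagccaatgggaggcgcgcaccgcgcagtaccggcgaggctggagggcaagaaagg
The windows of Rabggtb and Mrtfb, which were chosen for it, each hold 1 match, and those of Bdh2 and Nde1 hold 0. The Nde1 window has a GC content of 67.7% without a match, and the Bdh2 window 48.7%.

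Over all promoter windows of both regions, the motif stood mostly in windows with a selected peak. Of the 320 windows on the chromosome 3 block and chromosome 16 that overlap an optimal peak, 62 held the motif, 19.4% (95% Wilson interval 15.4 to 24.1). The share was 6 of 62 windows in the chromosome 3 block (9.68%, 4.51 to 19.5) and 56 of 258 on chromosome 16 (21.7%, 17.1 to 27.1). Of the 150 windows that overlap a background interval only, 0 held it, which allows a share of up to 2.00% (3 counts of 150), and 4 of the 350 windows that overlap neither did. On the other autosomes the motif stood in 17.9% of 6118 windows with an optimal peak (17.0 to 18.9) and in 0.426% of 3055 windows with a background interval only. The share over all 20062 autosomal windows was 6.54%. Windows with a background interval only had a median GC content of 54.2% in the 2 regions together and 58.0% on the other autosomes. In windows with an optimal peak it was 63.8% and 63.0%. The classes thus also differed in base composition, and windows of like GC content were not compared. A missing match says only that these letters are not in the window.

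In the pooled list the chromosome 3 block held far more background intervals per Mb than most of the genome, and chromosome 16 held moderately more. Over the 25 bins of 1 Mb in the chromosome 3 block, the count of intervals by summit had a lowest value of 93, a median of 272 and a highest of 480. The 96 bins of chromosome 16 had a lowest count of 8, in the partial last bin, a median of 152 and a highest of 439. The 132 bins of the rest of chromosome 3 held 4 to 299 intervals (median 73.5), and the 2147 bins of the other autosomes held 0 to 568 (median 101). The median bin was thus 2.69 times that of the other autosomes in the chromosome 3 block and 1.5 times on chromosome 16, and the block was 3.70 times the rest of its own chromosome. The ranges of all 4 sets of bins overlapped.

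Both replicate lists showed the same order with smaller ratios. In the chromosome 3 block the median bin held 211 intervals in replicate 1 and 238 in replicate 2, against 85 and 80.5 on the rest of chromosome 3 and 106 in both on the other autosomes. On chromosome 16 the median was 152 in replicate 1 and 155 in replicate 2. Over the other autosomes, the ratio averaged 2.12 ± 0.180 in the chromosome 3 block and 1.45 ± 0.0167 on chromosome 16, and the block over the rest of chromosome 3 averaged 2.72 ± 0.335 (SD, n = 2 each). The pooled count was above both replicate counts in 24 of the 25 bins of the chromosome 3 block and in 51 of the 96 bins of chromosome 16, against 29 of 132 bins on the rest of chromosome 3 and 27.4% of the bins of the other autosomes. Each list holds 300000 lines, so a count is a share of a fixed total in every list.

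A bin is called dense here if it holds at least 1.5 times the median count of the bins of autosomes other than 3 and 16, which is 152 in the pooled list. In that list 24 of the 25 bins of the chromosome 3 block (96.0%) and 48 of the 96 bins of chromosome 16 (50%) were dense, where the share over all autosomal bins was 32.4%. On the rest of chromosome 3 it was 21.2%, and on the other autosomes 31.6%. In replicate 1 the counts were 22 and 47 bins, where 27.6% of all bins were dense, and in replicate 2 they were 22 and 45, where 27.5% were. Since the rule used this density, nothing is read from these counts. As for the name of a dense block, the chromosome 3 region answers to it in all but 1 bin, while chromosome 16 is a mixture of dense and sparse bins.

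In the pooled list the densest autosomal bins lay on 3 chromosomes. Of the 24 bins with the highest pooled counts (1% of the autosomal bins, 411 intervals or more), 4 were in the chromosome 3 block, 5 on chromosome 16, 15 on chromosome 11 and 0 elsewhere. In replicate 1 the 24 highest fell 2, 4, 17 and 1 in the same order, and in replicate 2 they fell 3, 4, 16 and 1. Of the 120 highest (5%), the 4 sets held 12, 22, 63 and 23 bins in the same order. By the median bin chromosome 16 ranked second among the 19 autosomes in all 3 lists, behind chromosome 11, whose median was 291 in the pooled list.

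Along chromosome 3 the counts followed each other in 1 long run. The bins from 130 to 150 Mb were all dense, a run of 20. The longest run of dense bins on chromosome 11 was 34, on chromosome 16 it was 10, and elsewhere 12. The densest bins of the block began at 146 Mb, with 480 intervals in the pooled list, 395 in replicate 1 and 378 in replicate 2, at 153 Mb, with 468, 396 and 351, and at 138 Mb, with 451, 329 and 366. The sparsest began at 150 Mb, with 93, 94 and 90 intervals and 0 protein-coding genes, at 131 Mb, with 152, 142 and 137, and at 130 Mb, with 161, 159 and 160. The high bins are spread over the block, and its lowest bin has dense neighbours on both sides.

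**Figure D1:**
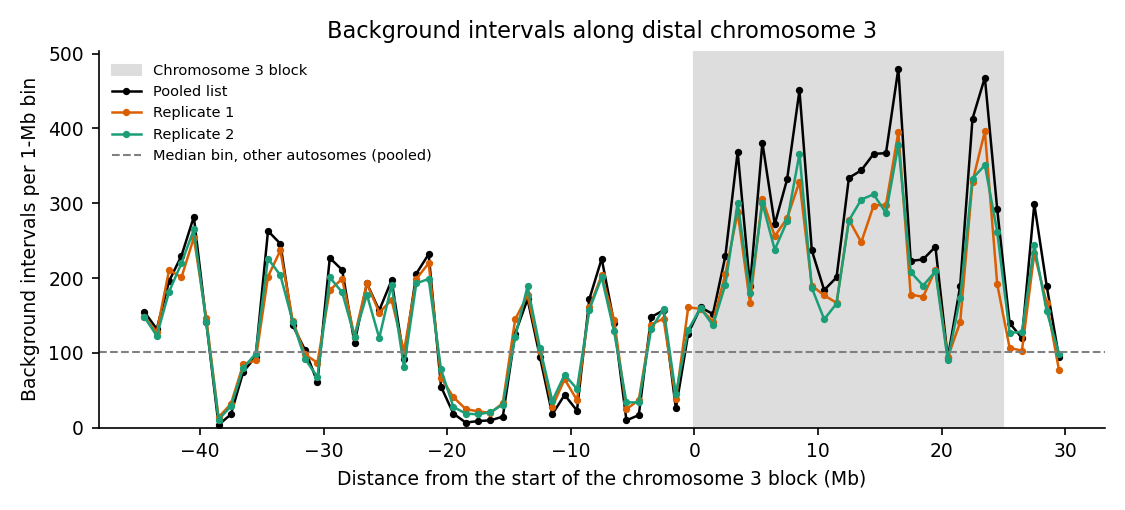
Background intervals per 1-Mb bin along chromosome 3 (vertical axis, count) against the distance from the start of the block in Mb (horizontal axis), for the pooled list and each replicate list, with the block shaded and the median pooled bin of the other autosomes dashed. Counts are high through most of the block, peak at 480 in the pooled list, drop to 140 and 120 in the first 2 bins past its right edge and stand at 299 and 190 in the next 2.

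The edges set by the rule are not those of a raised segment fitted to the counts. Just inside the left edge the pooled bins held 161 and 152 intervals, and just outside it 126 and 26. Just inside the right edge they held 292 and 468, and just outside it 140 and 120, followed by 299 and 190 in the bins from 157 and 158 Mb. A least-squares fit of a single raised segment to the log2 counts in 100-kb bins (pseudocount 1) ran from 129400001 to 158600000 in the pooled list, from 129300001 to 158600000 in replicate 1 and from 129500001 to 158600000 in replicate 2. Inside the pooled segment the mean was 274 intervals per Mb and outside it 86.6, a ratio of 3.17, and the fit took up 24.6% of the variance of the bins. With the median of bins of like gene content subtracted, the left edge lay at 132500001 and the right at 158300000. The left edge thus moved with gene content, and the raised stretch passes the right edge of the rule in all 3 lists. Only 14 bins of 100 kb lay beyond the fitted right edge in each list, so few bins were left to place it. The fit also took in the bins with 140 and 120 intervals.

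Chromosome 16 had no single block. Its densest bins began at 30 Mb, with 439 intervals in the pooled list, 331 in replicate 1 and 366 in replicate 2, at 10 Mb, with 433, 370 and 370, and at 92 Mb, with 430, 344 and 355. The sparsest were the partial bin at the end, with 8, 7 and 5, and those from 61 Mb, with 22, 30 and 38, and from 71 Mb, with 26, 36 and 40. The 60 bins from 3 to 63 Mb had a median of 216 intervals and held 501 protein-coding genes, and the 21 bins from 78 to 99 Mb had a median of 190 and 157 genes. Between them, the 15 bins from 63 to 78 Mb held 26 to 97 intervals each, with a median of 45.0, which is 0.446 times the median bin of the other autosomes, and 21 genes. The replicate medians there were 53.0 and 60.0. These limits were chosen after the counts were seen. The raised segment fitted to chromosome 16 ran from 8400001 to 39000000 in the pooled list, with 269 intervals per Mb inside it and 143 outside. With the median of bins of like gene content subtracted, it shrank to 2000 kb, from 24000001 to 26000000, and took up 10.3% of the variance.

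**Figure D2:**
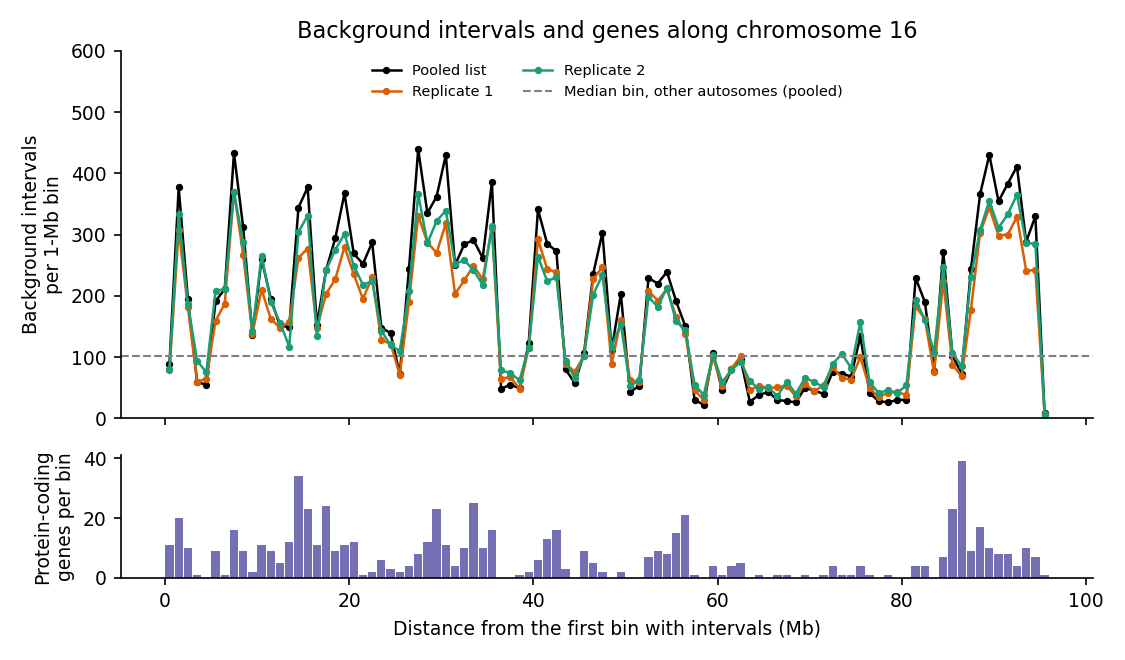
Background intervals per 1-Mb bin along chromosome 16 for the pooled list and each replicate list, with the median pooled bin of the other autosomes dashed and the number of protein-coding genes per bin in the lower panel. Dense bins form runs of up to 10 with sparser bins between them, and the sparse stretch with a median of 45.0 intervals is also poor in genes.

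Background intervals went with gene number in all 4 sets of bins, so the regions were also set against bins of like gene content. Across bins, the Spearman correlation of the pooled count with the number of protein-coding genes was 0.679 in the chromosome 3 block (25 bins), 0.737 on chromosome 16 (96), 0.683 on the rest of chromosome 3 (132) and 0.643 on the other autosomes (2147). These are descriptions over bins that share libraries, depth and base composition with their neighbours. The chromosome 3 block held 5.12 protein-coding genes per Mb, chromosome 16 held 7.07, the rest of chromosome 3 held 6.48 and the other autosomes 8.72. Neither region was richer in genes than the other autosomes.

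In bins of 0 to 2 genes the median count was 224 in the chromosome 3 block (10 bins) and 48.5 on chromosome 16 (38), against 20.5 on the rest of chromosome 3 (52) and 26.0 on the other autosomes (660). In bins of 3 to 9 genes it was 312 and 229, against 107 and 108. In bins of 10 or more it was 413 and 284, against 142 and 178. Over the other autosomes the ratio in the chromosome 3 block was 8.62 in the poorest class, 2.89 in the middle one and 2.32 in the richest, and on chromosome 16 it was 1.87, 2.12 and 1.60. In replicate 1 the ratios of the poorest class were 4.13 and 1.35, and in replicate 2 they were 4.49 and 1.49.

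Each bin was also set against the median of bins of like gene content on the other autosomes. The ratio of a bin to the median of its gene class had a median of 3.42 in the chromosome 3 block, with a range of 1.41 to 13.2, and of 1.83 on chromosome 16, with a range of 0.308 to 11.7. It reached 1.5 in 23 of 25 bins of the chromosome 3 block and in 63 of 96 bins of chromosome 16 (24 and 48 bins were dense without regard to genes), where 26.3% of all autosomal bins did. On the rest of chromosome 3 it did so in 18.9% of bins and on the other autosomes in 24.2%. By this measure the run on chromosome 3 was 27 bins long, from 132 to 159 Mb, and the longest on chromosome 11 was 40 bins. The sparse stretch of chromosome 16 had a median ratio of 1.46, against 2.04 in the bins before it and 1.76 in those after it.

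By ratio to the other autosomes, the chromosome 3 block stood furthest out in bins with few genes, where the counts of the other autosomes were lowest. By difference in median count it did not. The medians were 224 against 26.0 in bins of 0 to 2 genes and 413 against 178 in bins of 10 or more, a wider gap. The ratio of chromosome 11 was also highest in the poorest class, so this order was not particular to the block. In the pooled list 9 of the 10 bins of the block with 0 to 2 genes were dense, against 5 of 38 on chromosome 16, 1 of 52 on the rest of chromosome 3 and 23 of 660 on the other autosomes. The bin from 147 Mb had 0 protein-coding genes and 0 optimal peaks and held 223 intervals in the pooled list, 178 in replicate 1 and 208 in replicate 2. Over all bins with 0 to 2 genes and no optimal peak, the median was 195 in the chromosome 3 block (4 bins) and 44.0 on chromosome 16 (30), against 16.5 on the rest of chromosome 3 (40) and 18 on the other autosomes (463).

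**Figure D3:**
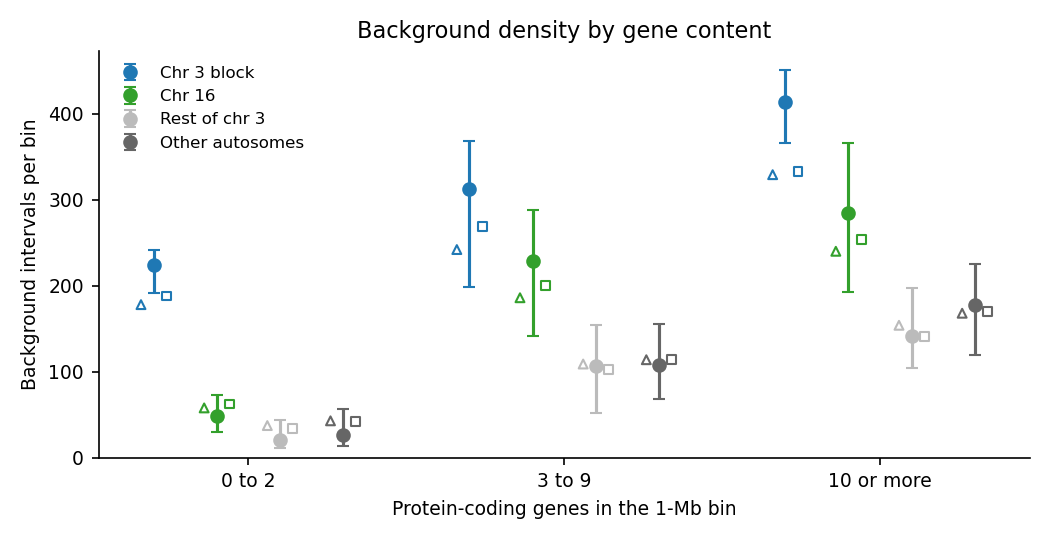
Median number of background intervals per 1-Mb bin (vertical axis) in bins of 0 to 2, 3 to 9 and 10 or more protein-coding genes (horizontal axis), for the chromosome 3 block, chromosome 16, the rest of chromosome 3 and the other autosomes. Points are medians of the pooled list with quartile bars, open triangles are replicate 1 and open squares replicate 2, and the chromosome 3 block lies highest in each class, at 224, 312 and 413 intervals.

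The intervals of both regions were weak, and their median signal was close to that of other background. Pooled signal, the value of the authors' caller, had a median of 6.40 in the chromosome 3 block, with quartiles of 5.44 and 8.04, and of 6.23 on chromosome 16, with quartiles of 5.37 and 7.68. The medians were 5.92 on the rest of chromosome 3 and 5.99 on the other autosomes. The ratio to the other autosomes was thus 1.07 in the chromosome 3 block and 1.04 on chromosome 16. The lowest pooled signal was 4.70 in every set, where the list is cut, which limits how far these medians can differ. In replicate 1 the ratios were 1.09 and 1.04 and in replicate 2 they were 1.08 and 1.01. The optimal peaks went the other way: their median was 26.1 over 229 peaks in the chromosome 3 block and 31.6 over 809 on chromosome 16, against 35.6 over 660 on the rest of chromosome 3 and 38.4 over 15558 on the other autosomes. All 7194 intervals of the chromosome 3 block and 17401 of the 17403 on chromosome 16 were 344 bp wide, so width carries no further information.

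In the pooled list the excess was present at every level of signal. The lines of the list were ranked by signal and cut into 10 classes of equal size, and the autosomal background intervals of each class were counted. The chromosome 3 block, which has 1.04% of the autosomal bins, held between 1.93% and 3.80% of a class, and chromosome 16, with 4.00% of the bins, held between 5.21% and 7.33%. Both shares were highest in the second class, and both were lowest in the class of the lowest signal. In the replicate lists the shares were above those of the bins in every class but 1: the ninth class of replicate 1, whose signal ran only from 2.78 to 2.79, had 0.447% of its intervals in the chromosome 3 block and 3.38% on chromosome 16. Chromosome 11, with 119 of the 2400 autosomal bins, held between 8.78% and 15.0% of a class in the pooled list. Its share was also highest in the second class, so this profile was not particular to the 2 regions.

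**Figure D4:**
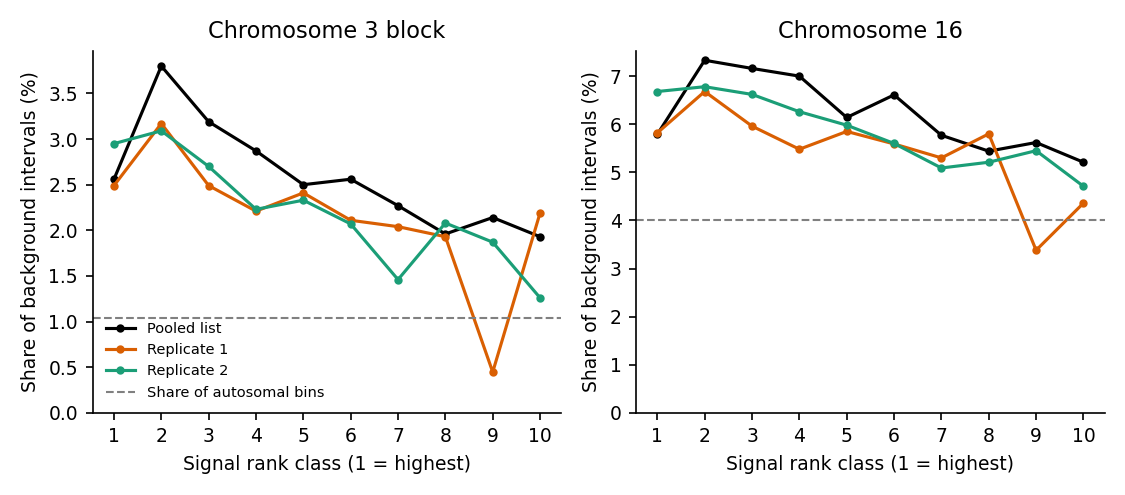
Share of autosomal background intervals (vertical axis, %) that lie in the chromosome 3 block (left) and on chromosome 16 (right), in 10 classes of signal from the highest to the lowest (horizontal axis), for the pooled list and each replicate list, with the shares of the autosomal bins dashed. The pooled shares run from 1.93% to 3.80% for the chromosome 3 block and from 5.21% to 7.33% for chromosome 16, above their shares of the autosomal bins, 1.04% and 4.00%.

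Most background intervals of the pooled list were not seen in both replicate lists, in these regions as elsewhere. An interval overlapped an interval of each replicate list by at least 1 bp in 26.4% of cases in the chromosome 3 block (95% Wilson interval 25.4 to 27.4) and 24.4% on chromosome 16 (23.7 to 25), against 20.5% on the rest of chromosome 3 and 22.6% on the other autosomes (22.4 to 22.8). The replicate lists also covered more of these regions: 8.29% and 8.57% of the bases of the chromosome 3 block and 5.57% and 6.08% of chromosome 16, against 4.10% and 4.18% of the other autosomes. Among the background intervals at or above the median signal the share was 37.8% in the chromosome 3 block and 37.8% on chromosome 16, against 38.3% on the other autosomes. Counts per bin were compared on another scale, which cannot be ranked against these shares. The Spearman correlation of replicate 1 with replicate 2 was 0.944 over the 25 bins of the chromosome 3 block and 0.976 over the 96 of chromosome 16. It was 0.981 over the 2147 bins of the other autosomes.

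The intervals were spread through the regions and not piled at a few loci. The median gap between neighbours was 1998 bp in the chromosome 3 block and 2416 bp on chromosome 16, against 4036 bp on the rest of chromosome 3 and 3413 bp on the other autosomes. Joining those that overlap left 6811 loci in the chromosome 3 block and 16584 on chromosome 16. They covered 9.73% and 6.14% of the bases, against 3.03% on the rest of chromosome 3 and 3.84% on the other autosomes.

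By position in genes the chromosome 3 block differed from chromosome 16. Summits inside a RefSeq gene made up 54.4% of the intervals of the chromosome 3 block (95% Wilson interval 53.2 to 55.5), where genes cover 47.4% of the bases, and 61.5% on chromosome 16 (60.8 to 62.2), where they cover 47.6%. The shares were 54.0% on the rest of chromosome 3 (genes cover 40.3%) and 63.6% on the other autosomes (49.9%). Per Mb, the chromosome 3 block held 330 intervals inside genes and 249 outside, and the other autosomes 144 and 82.2, so the ratio to the other autosomes was 2.29 inside genes and 3.03 outside. Chromosome 16 held 234 and 133, a ratio of 1.62 in both. The excess thus lay between genes as well as in them. Wilson intervals cover counting error only, and neighbouring intervals are not independent.

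Promoters without an optimal peak often had a background interval close by in the chromosome 3 block, which was chosen for the density of such intervals. Denser intervals put more summits near any position, so the shares with a background summit below describe that density again. Whether promoters there differ beyond it was not tested. Of its 108 protein-coding genes with a start in the table, 54 had an optimal peak summit within 1000 bp of it, 50% (95% Wilson interval 40.7 to 59.3), as did 255 of 568 on chromosome 16 (44.9%, 40.9 to 49.0), where the share over all autosomal genes was 41.2%. It was 37.2% of 701 on the rest of chromosome 3 and 41.2% of 15079 on the other autosomes. Among the genes without such a peak, 42 of 54 in the chromosome 3 block (77.8%, 65.1 to 86.8) and 141 of 313 on chromosome 16 (45.0%, 39.6 to 50.6) had a background summit within the same distance, against 38.4% of 440 on the rest of chromosome 3 and 37.6% of 8871 on the other autosomes. There were 31.4 background intervals per optimal peak in the chromosome 3 block and 21.5 on chromosome 16, against 17.8 on the rest of chromosome 3 and 15.6 on the other autosomes. Optimal peaks were also more frequent per Mb, at 9.16 in the chromosome 3 block and 8.43 on chromosome 16, against 5 on the rest of chromosome 3 and 7.25 on the other autosomes.

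The step from background to selected peaks can be followed as the share of all autosomal entries of a list. Chromosome 16 held 6.23% of the pooled background, 5.40% in replicate 1 and 5.79% in replicate 2, and 4.69% of the optimal set and 4.65% of the conservative set, with 3.29% of the protein-coding genes. The chromosome 3 block held 2.58% of the pooled background, 2.13% and 2.16% in the replicates, 1.33% of the optimal set and 1.24% of the conservative set, with 0.620% of the genes. In the peak set called separately on mm9, chromosome 16 held 467 of 10979 autosomal peaks, 4.25%. The block was not placed on mm9, since no coordinate was converted between builds.

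Long genes show the density in known places. Among protein-coding genes of at least 50 kb, the median number of background summits per 100 kb of gene body was 33.9 in the chromosome 3 block (48 genes, range 6.38 to 68.9) and 27.7 on chromosome 16 (190 genes, 2.36 to 74.4), against 12.3 on the rest of chromosome 3 (209) and 14.6 on the other autosomes (4277). The upper quartile of the other autosomes, 21.6, was passed by 37 of the 48 genes in the chromosome 3 block and 130 of the 190 on chromosome 16, where 26.9% of all such genes passed it. The ranges of all 4 sets overlapped.

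**Figure D5:**
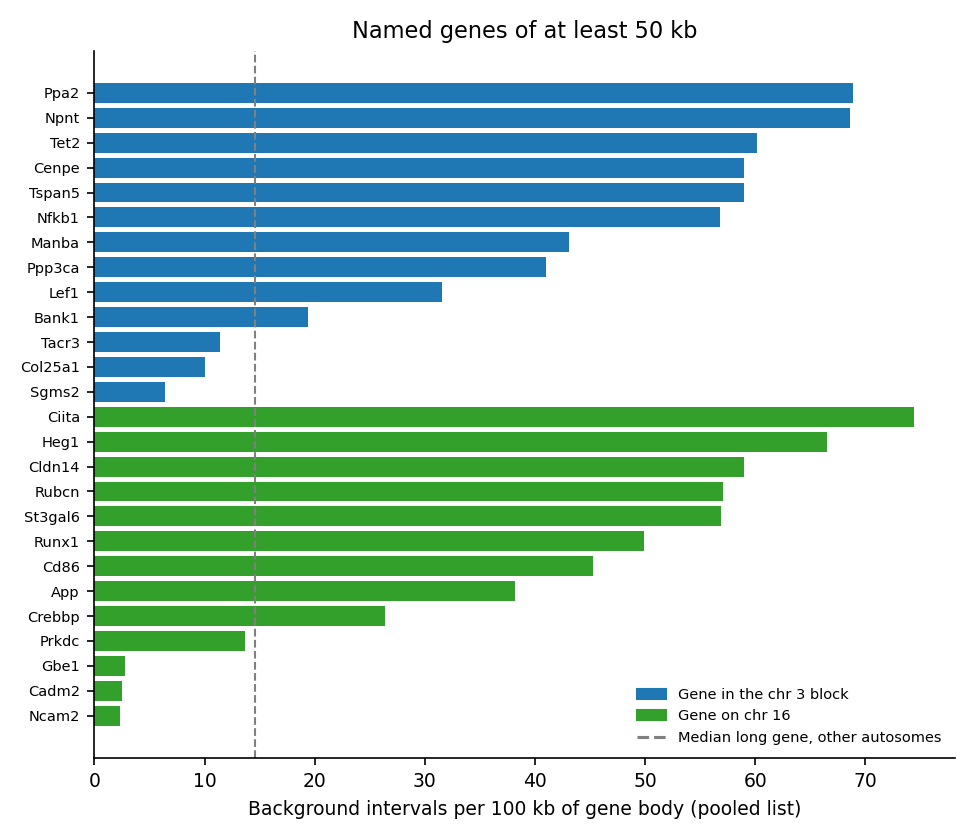
Background summits per 100 kb of gene body (horizontal axis) in the named protein-coding genes of at least 50 kb, with genes of the chromosome 3 block above those of chromosome 16 and the median of such genes on the other autosomes, 14.6, dashed. Values run from 6.38 for Sgms2 to 68.9 for Ppa2 in the chromosome 3 block and from 2.36 for Ncam2 to 74.4 for Ciita on chromosome 16.

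In the chromosome 3 block the densest long genes were Ppa2, Npnt, Tet2, Tspan5 and Cenpe. Ppa2, a mitochondrial pyrophosphatase (chromosome 3, 133310059 to 133378235), held 47 intervals in the pooled list, 34 in replicate 1 and 36 in replicate 2, and its promoter had an optimal peak with a signal of 389. Npnt, which encodes the matrix protein nephronectin (132881745 to 132950291), held 47, 25 and 32. Tet2, an enzyme that oxidises 5-methylcytosine (133463677 to 133545136), held 49, 35 and 48. All 3 lie within the bins from 132 and 133 Mb. Tspan5, a tetraspanin (138741848 to 138904433), held 96, 66 and 77, and Cenpe, a kinesin of the kinetochore (135212563 to 135273540), held 36, 29 and 24. The sparsest were Sgms2, a sphingomyelin synthase, with 11, 15 and 13, Col25a1, a membrane collagen, with 42, 47 and 41, and the neurokinin receptor gene Tacr3, with 12, 13 and 12. None of these 3 had an optimal peak at its promoter, while all 5 of the densest did. Of the 108 genes of the block with a known start, 50% had one. On chromosome 16 Cldn14, also among the densest long genes, had none, and no start was listed for Ciita. The genes are few and were picked by density, so nothing is read from these counts.

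On chromosome 16 the densest long genes were Ciita, Heg1, Cldn14, Rubcn and St3gal6. Ciita, the transactivator of MHC class II genes, which B cells express (chromosome 16, 10480014 to 10531064), held 38 intervals in the pooled list, 30 in replicate 1 and 36 in replicate 2. Heg1, a membrane protein of the vessel wall (33684384 to 33771576), held 58, 47 and 47, and Cldn14, a tight-junction claudin (93919031 to 94008837), held 53, 49 and 36. Rubcn, an inhibitor of autophagy, held 32, 24 and 28, and St3gal6, a sialyltransferase, held 31, 27 and 22. The sparsest were the cell adhesion genes Ncam2 (81200697 to 81624290), with 10, 17 and 16, and Cadm2 (66655416 to 67620917), with 24, 48 and 46, and Gbe1 (70313949 to 70569720), the glycogen branching enzyme, with 7, 12 and 19. In these 3 the replicate lists held more intervals than the pooled list. Cadm2 and Gbe1 lie in the sparse stretch.

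A list of 24 genes with roles in B cells or as NRF1 targets was followed in the same way, and 23 of them lay in the regions, 7 in the chromosome 3 block and 16 on chromosome 16. Of the 23 genes, 21 held at least 1 interval. All 48 protein-coding genes of at least 50 kb in the chromosome 3 block and all 190 on chromosome 16 did so too. The share among all shorter genes was not counted, so nothing is read from the 21. Of the 11 listed genes that are at least 50 kb long, 9 were above the upper quartile of the other autosomes, and 1, Prkdc, was below their median. Of all such genes 26.9% were above that quartile, but in the chromosome 3 block 37 of 48 were, and on chromosome 16 130 of 190. Nothing particular to the listed genes is therefore read from this count. An optimal peak stood at the promoter of 12 of the 17 genes with a start in the table, where 41.2% of all protein-coding genes had one. The other 6 genes had no start there. The list includes NRF1 targets and was chosen with earlier results of these data known, so this share is no result about the genes.

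The transcription factor genes of this list held between 9 and 112 intervals in the pooled list. Nfkb1, a subunit of NF-kappaB (chromosome 3, 135584655 to 135691969), held 61 intervals in the pooled list, 44 in replicate 1 and 43 in replicate 2, and 10 optimal peaks in its body. Runx1 (chromosome 16, 92601466 to 92826074), a factor of blood cell formation, held 112, 85 and 96, and its promoter peak had a signal of 59.1. Lef1, a partner of beta-catenin, held 36, 30 and 32. Bcl6, the repressor of germinal centre B cells, held 9, 12 and 7, and neither Lef1 nor Bcl6 had an optimal peak at its promoter. Gabpa, which encodes the DNA-binding subunit of nuclear respiratory factor 2, held 11, 8 and 7, with a promoter peak of 402. Ets2, an ETS-family factor, held 9, 13 and 8 with no promoter peak.

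The signalling and surface genes of the list held between 0 and 110 intervals in the pooled list. Ppp3ca, the catalytic subunit of calcineurin (chromosome 3, 136669714 to 136937727), held 110 intervals in the pooled list, 106 in replicate 1 and 89 in replicate 2, and Bank1, a B-cell scaffold protein, held 53, 54 and 45 over a body of like length, which is 41.0 and 19.4 per 100 kb in the pooled list. Cd86 and Cd80, ligands that costimulate T cells, held 44, 34 and 27, and 25, 19 and 27. Socs1, an inhibitor of cytokine signalling, held 2, 1 and 1 and had a promoter peak of 500, Litaf, an endosomal membrane protein, held 27, 29 and 20, and Bcl10, an adaptor of antigen receptor signalling, held 3 in each list. The surrogate light chain genes Vpreb1 and Igll1 held 0 and 1 in the pooled list. These short genes are limited by their length.

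Of the remaining genes, Crebbp, a histone acetyltransferase, held 35, 25 and 33 intervals in the pooled list, replicate 1 and replicate 2. App, the amyloid precursor, held 85, 78 and 63, and Manba, a lysosomal mannosidase, held 37, 32 and 35. Prkdc, the catalytic subunit of DNA-dependent protein kinase, held 28, 35 and 37, and its neighbour Mcm4, a subunit of the replicative helicase, held 4, 5 and 4. Sod1, the copper-zinc superoxide dismutase, held 4, 3 and 4. Fubp1, a DNA-binding regulator of Myc, held 0, 3 and 0, although its bin held 413 intervals in the pooled list.

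The strongest background intervals reached a signal of 27.6 in the chromosome 3 block and 36.5 on chromosome 16, where the lines removed for overlapping an optimal peak reached 657 and 674. In the chromosome 3 block the highest had 12.5 and 13.9 in the overlapping intervals of the replicate lists (chromosome 3, 137563693 to 137564036), 8534 bp from the nearest gene, Gm4861. The next lay 52721 bp from the nearest gene, Hs2st1, in Tspan5, in Dnajb14 and near Gbp5, at 26.6, 26.1, 25.6 and 25.5. Their distances to the nearest optimal peak summit were 831, 862, 11607 and 6752 bp in the same order. On chromosome 16 the highest had 22.1 and 18.2 in the replicates (14162999 to 14163342), 104 bp before the start of Nde1, whose window is printed above. A second, at 36.2 with 21.9 and 15.9 in the replicates, lay 2464 bp before the start of Fam43a (30597087 to 30597430). The others lay in Snx29, in St3gal6 and 102 bp before a start of Tmem45a, at 35.5, 29.4 and 29.1. All 10 were seen in both replicate lists. Signal values of the pooled and replicate lists are on separate scales and are not compared.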

How the data were processed

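ChIP-seq for NRF1 was measured in 2 biological replicates of 1 cell line. Per the notes deposited beside the samples, the authors called relaxed lists of peaks and background on mm10 for each replicate and for both pooled, with a control, and selected the conservative and optimal sets by IDR. They also called peaks on mm9. The sources used here do not name the aligner, the caller or the read numbers, and depth is therefore unknown. Each deposited interval has a signal value of unstated scaling, compared only within a list. The deposited significance score and rank score columns, and any other column, entered no result, except the deposited summit offset (in bases), which placed each interval.

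Intervals overlapping an optimal peak by at least 1 bp were removed, and summits were counted in 1-Mb bins that hold at least 1 line of any relaxed list. Autosomes were used. Genes, starts and promoter windows came from RefSeq GRCm38.p6 tables: 47038 genes, 20661 of them protein-coding, 16456 with a start and 20062 windows, with none on chromosome 18. The reference genome given was mm9, so no sequence was read by mm10 coordinates. Shares have 95% Wilson intervals, which cover counting error only. No test was run, because density chose the regions. The segment fit was made on counts and on counts less the median of bins of like gene content. It was tried on simulated independent bins with a single step on a flat background. These do not copy how gene content varies along a chromosome, so they do not measure the error of the edges given here. Named genes were, in each region, the 5 densest and 3 sparsest protein-coding genes of at least 50 kb, a list of 24 genes, and those nearest to the 5 intervals of highest signal. The promoters printed had the highest signal of their class, those with an optimal peak among windows with the motif. The regions, lists and rules were chosen with earlier results of these data known. Python 3.11.15, pandas 2.3.3, NumPy 2.4.6, SciPy 1.17.1 and matplotlib 3.10.9 were used.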

Additional observations from a re-analysis of the deposited data

How the results depend on the processing

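No paired analysis was possible because the series has 1 group. Of 145 values under alternatives, 41 moved and 0 reversed. Only the ratios have a direction that could reverse, and every ratio stayed above 1. Counts of dense bins, edges and shares have no such direction, so the 0 says nothing about them. The limit for a move also differed between results. A change from 1.5 to 1.52 counted as moved for the chromosome 16 ratio. A change from 706 to 944 dense bins outside both regions, with the limit at 1.2 times the median, did not. The count of 41 therefore measures no robustness. The ratio to the other autosomes on chromosome 16 (1.5) was 1.44 to 1.46 with 1 replicate left out, 1.52 with no interval removed, 1.95 with the 150000 lines of higher signal, 1.59 in 5-Mb bins, 1.56 with empty bins kept and 1.59 without chromosome 11. In the chromosome 3 block (2.69) it was 1.99 to 2.25 with 1 replicate left out, 3.32 with the lines of higher signal and 2.88 in 5-Mb bins. The block over the rest of chromosome 3 (3.70) was 2.48 to 2.96 with 1 replicate left out and 4.61 with the lines of higher signal. Against bins of like gene content, an alternative added after seeing the data, the ratio was 3.42 in the chromosome 3 block and 1.83 on chromosome 16, and the edges on chromosome 3 were 132500001 and 158300000. With dense bins set at 2 times the median, 355 bins outside both regions were dense, against 706 at 1.5 times. Median signal over that of the other autosomes in the chromosome 3 block (1.07) was 1.08 to 1.09 with 1 replicate left out, 1.05 with no interval removed, 1.04 with the lines of higher signal and 1.08 without chromosome 11, and on chromosome 16 (1.04) it was 1.01 to 1.04 with 1 replicate left out and 1.01 with the lines of higher signal. The share of intervals seen in both replicates in the chromosome 3 block and on chromosome 16 (26.4% and 24.4%) was 28.8% and 27.8% with no interval removed, 39.6% and 39.5% with the lines of higher signal, 25% and 23.1% with overlapping intervals merged, and 18.6% and 17.5% at an overlap of 50%. Summits inside genes (54.4% and 61.5%) made up 53.0% to 54.5% and 59.8% to 60.3% with 1 replicate left out, 56.6% and 63.3% with the lines of higher signal, and 43.5% and 53.2% inside protein-coding genes only. The causes of these shifts were not tested. The read depth is unknown, the control library was not analysed here, and each list ends at the same number of lines, so the counts compare places within a list and not amounts of DNA.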
